A study of Homo sapiens with 2 samples.

Results

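The genes described here encode enzymes and transport proteins that break down fatty acids, make or use ketone bodies, and build the peroxisome. They were taken by gene symbol from both libraries' tables and are 47 of the 25343 gene entries. RNA came from Huh7, an established human line from a well differentiated liver carcinoma, grown for 6 days with glucose at 4.5 g/L (high glucose) or at 0.45 g/L (low glucose). There is 1 library for each medium, and the labels' protocols name DMEM with 10% FBS as the culture medium of the line. Cultures were split when nearly confluent and live cells alone were reseeded, per the same protocols. No difference here has a replicate check, and the design allows neither a test nor a p-value.

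Fatty acids are bound in the cytosol, activated to acyl-CoA, and passed through the carnitine shuttle into mitochondria, where a spiral of repeated steps shortens the chain and hands electrons to the respiratory chain. Peroxisomes run a related spiral on very long and branched chains, using oxidases that make hydrogen peroxide, and pass shortened products to mitochondria. In liver, acetyl-CoA from fat oxidation is made into ketone bodies during fasting, and many genes of these routes are known targets of the fatty acid receptor PPARA. Peroxisomes are built by peroxins, the products of the PEX genes, which insert membrane proteins and import the enzymes.

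In low glucose most of these genes stood lower by small amounts. FABP1, the liver fatty acid binding protein, was the 1 gene past 2-fold on the log2(TPM + 1) scale used for all differences, with 1669.7 TPM in the high glucose library and 701 TPM in the low glucose one. TPM is a scaled transcript number that corrects for transcript length and gives each gene's share of a library, so levels may be compared between genes. ACADL, a scarce transcript, was 2.03-fold higher in low glucose by TPM alone and under 2-fold on that scale. Against the general direction, CPT1A, ACADL, ACSL1 and ACOX3 lay above a 1.5-fold rise with low glucose and are named for these values. The mitochondrial and peroxisomal sets had nearly equal median differences. Within the peroxisomal set the median difference was lower for the enzymes and transporter than for the peroxins (-0.54 and -0.06), a contrast drawn after the values were seen, and it was smaller (-0.38 and -0.11) once the median of genes of like level was subtracted.

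The sequences upstream of 5 genes are shown because these genes had large differences in opposite directions and 1 annotated start each in the table used (SCP2 and ACOX3 have 2 each and are not shown). They are the bases before the RefSeq start site that lie outside every exon of the GENCODE release 29 basic set, on GRCh38.p14, 5′ to 3′ on the gene's strand, and are credited to RefSeq. Capitals mark matches to 1 of 4 motifs searched on both strands over the 250 bases before each start. These were a direct repeat bound by PPAR and RXR or by HNF4A (2 copies of AGGTCA with 1 base between them, with up to 2 mismatches over both copies), an E-box (CACGTG), the CCAAT box, and an element known for ATF4 (TGATGNAAN). FABP1, CAT and CROT stood lower in low glucose, while ACADL and CPT1A stood higher.
FABP1, chr2:88128117-88128312, minus strand: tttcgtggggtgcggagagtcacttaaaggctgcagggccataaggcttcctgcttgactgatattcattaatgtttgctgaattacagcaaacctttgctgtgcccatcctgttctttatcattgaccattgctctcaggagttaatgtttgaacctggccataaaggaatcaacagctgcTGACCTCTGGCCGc
CAT, chr11:34438684-34438924, plus strand: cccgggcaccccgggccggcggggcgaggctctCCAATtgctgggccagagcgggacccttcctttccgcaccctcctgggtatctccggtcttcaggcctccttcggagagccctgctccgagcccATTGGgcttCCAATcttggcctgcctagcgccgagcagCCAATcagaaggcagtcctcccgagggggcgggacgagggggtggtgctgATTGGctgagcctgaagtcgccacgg
CROT, chr7:87345516-87345663, plus strand: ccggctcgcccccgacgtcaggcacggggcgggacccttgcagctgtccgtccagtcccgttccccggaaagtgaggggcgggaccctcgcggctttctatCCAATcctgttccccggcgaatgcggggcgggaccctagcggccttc
ACADL, chr2:210225492-210225697, minus strand: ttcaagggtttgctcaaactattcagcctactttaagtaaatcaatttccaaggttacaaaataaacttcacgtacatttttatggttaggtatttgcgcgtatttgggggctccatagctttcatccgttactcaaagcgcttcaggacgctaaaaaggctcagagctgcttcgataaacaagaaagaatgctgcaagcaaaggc
CPT1A, chr11:68844278-68844527, minus strand: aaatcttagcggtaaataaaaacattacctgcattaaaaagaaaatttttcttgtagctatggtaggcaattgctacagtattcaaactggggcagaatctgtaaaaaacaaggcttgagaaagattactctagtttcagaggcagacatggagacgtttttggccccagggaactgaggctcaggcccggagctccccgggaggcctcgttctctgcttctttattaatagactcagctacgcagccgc

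The FABP1 stretch holds a direct repeat on the opposite strand, 68 to 56 bases before the start and with 2 mismatches. The 39 genes of the set that matched the table have 58 windows, since some have several starts. Such a match was present in 3 of these 58 windows (5.17%; FABP1, ACSL1 and ACAA2) and in 2.57% of all 35116 windows of this length. FABP1 stood lower, ACSL1 higher and ACAA2 slightly lower. The ACSL1 match lies before 1 of its several annotated starts, and which starts these cells use was not tested. The CAT window holds 5 CCAAT boxes on either strand, and the CROT window 1. CCAAT boxes were found in 13 of the 58 windows (22.4%), and in 32.0% of all windows. An E-box was found in 1 of the 58 windows, at PEX10 (1.72%, against 6.34% of all windows), and the ATF4 element in 1, at HSD17B4 (1.72%, against 3.13%). No capital letters stand in the ACADL and CPT1A stretches, which says only that these 4 motifs are not in these windows. Whether these cells use the start that follows each stretch shown was not tested either. A match describes letters and is not a measure of binding.

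All 47 genes had a mean of at least 1 TPM over both libraries, the level set for comparison, as did 13745 genes in all. Each difference is log2(TPM + 1) in low glucose minus that in high glucose, a scale on which scarce genes show less than their full fold. Of the 47 genes, 34 (72.3%) lay below 0 and 13 above, while 45.3% of all genes compared lay below 0. At least 2-fold lower was 1 gene (2.13%), against 1.10% of all genes, and none was 2-fold higher, against 3.65%. At 1.5-fold, 10 genes were lower (21.3%), against 6.07% of all genes, and 4 were higher (8.51%), against 13.0%. The median difference was -0.32 over the 47 genes and 0.05 over all genes compared. These counts describe 2 libraries and are not a test of the set.

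Level moved with these differences. Across all genes compared, abundant genes tended to lie lower in low glucose, and the group of genes from 1.56 to 2.45 TPM had a median of 0.20. The group from 124 to 225 TPM, which holds 10 of the 47, had a median of -0.16. When the median of all genes in the same of 20 level groups was subtracted, 34 of the 47 still lay below 0, and their median was -0.29. Across the 47 genes the difference correlated with log2 mean level at Pearson r = -0.44 and Spearman rho = -0.40. Across all 13745 genes these were -0.17 and -0.23. Genes of the same libraries are not independent, and these values are descriptions.

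**Figure D1:**
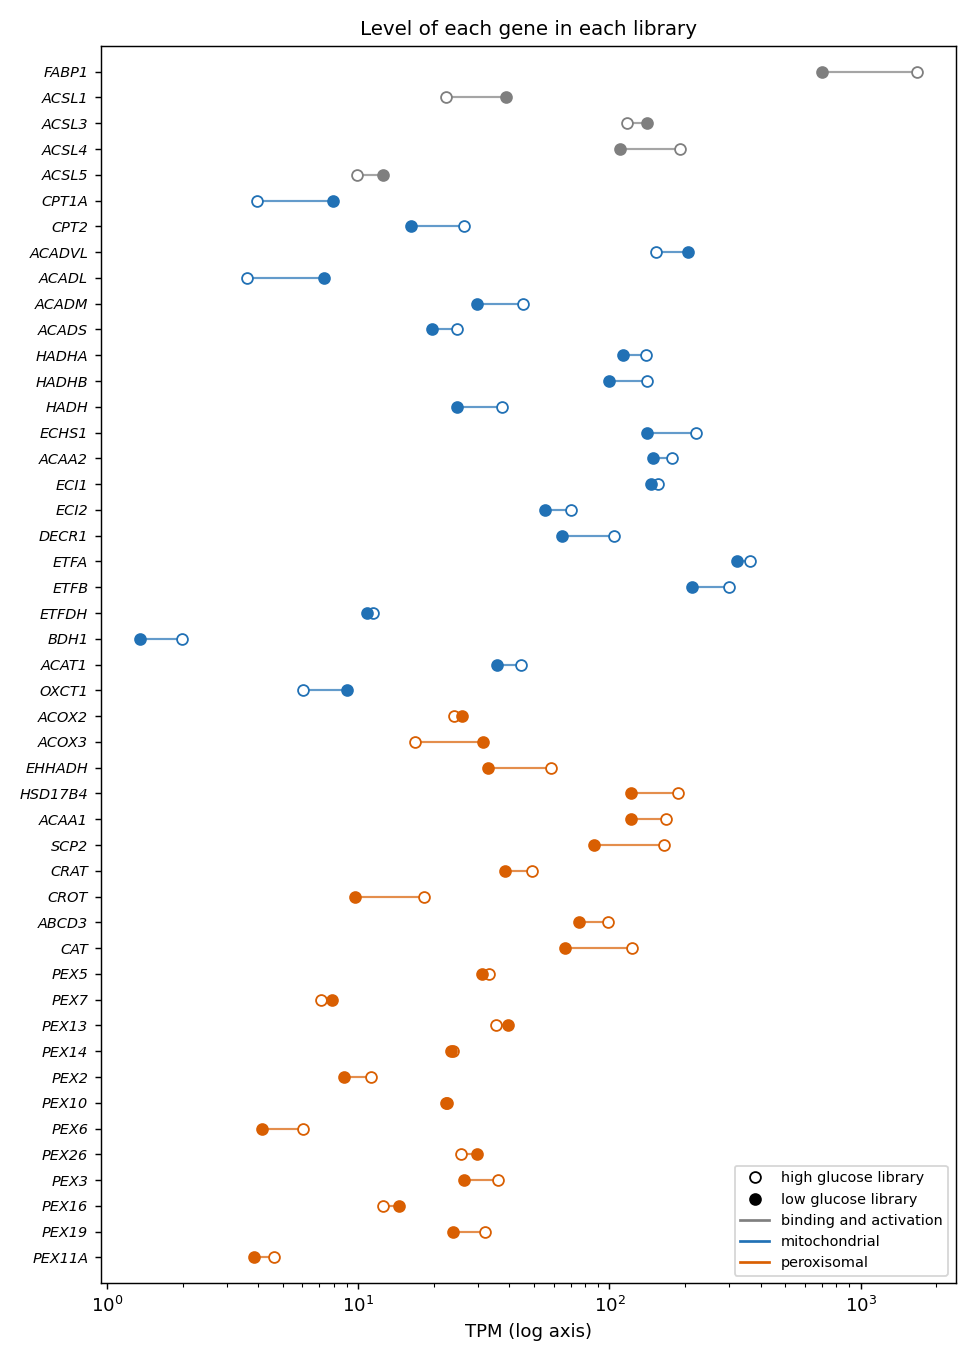
TPM of each of the 47 genes (horizontal log axis) in the high glucose library (open circles) and the low glucose library (filled circles), with grey for lipid binding and activation, blue for mitochondrial and orange for peroxisomal genes. The line joins the values of 1 gene, and FABP1 stands to the right of all others, at 1669.7 and 701 TPM.

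Lipid binding and activation come first in the route. FABP1 (chromosome 2, 88422508 to 88427650 on hg19, as for the other gene intervals given) carries long-chain fatty acids in hepatocytes and stood 2.38-fold lower in low glucose, a difference of -1.25. It ranked 76th of all entries by TPM in high glucose and 188th in low glucose, and 0.407% of genes compared had a lower difference. FABP1 alone made up 32.1% of the summed TPM of the 47 genes in high glucose and 19.9% in low glucose. The long-chain acyl-CoA synthetases, which activate fatty acids for both oxidation and lipid synthesis, went in opposite directions.

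ACSL4, the synthetase that prefers arachidonic acid, stood at 191 TPM with high and 111 TPM with low glucose (-0.79). ACSL1, the main isoform of liver and other oxidative tissues, was higher in low glucose, at 22.4 and 38.8 TPM (0.77). ACSL3, found on lipid droplets and the endoplasmic reticulum, stood at 117 and 141 TPM (0.27), and ACSL5 at 9.86 and 12.5 TPM (0.32). ACSL4 was thus the more abundant of ACSL3 and ACSL4 in high glucose and ACSL3 in low glucose. The sum over the 4 synthetases was 341 TPM with high and 303 TPM with low glucose.

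The carnitine shuttle genes moved apart. CPT1A (chromosome 11, 68522088 to 68609399), the outer membrane transferase that is the regulated gate to mitochondrial oxidation, stood at 3.97 TPM with high and 7.93 TPM with low glucose (0.85). CPT2 (chromosome 1, 53662101 to 53679869), its partner on the inner membrane, stood at 26.3 and 16.2 TPM (-0.66). The ratio of CPT1A to CPT2 was 0.151 in high and 0.488 in low glucose, and CPT1A remained the scarcer transcript in both. The CPT2 interval overlaps C1orf123 (39.9 and 35.5 TPM), and whether the libraries keep strand is not recorded in the labels or headers, so reads may have been shared; this was not tested.

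The 4 acyl-CoA dehydrogenase genes of the set, whose products open each turn of the spiral, divided by chain length. ACADVL, for very long chains, stood at 154 TPM with high and 205 TPM with low glucose (0.41). ACADL, for long chains, stood at 3.60 and 7.32 TPM (0.85), a low level in both libraries. ACADM, for medium chains, went the other way, at 45.2 and 29.8 TPM (-0.58). ACADS, for short chains, stood at 24.7 and 19.6 TPM (-0.32). Within these 4 genes, those for the longer chains were thus higher in low glucose and those for the shorter chains lower. This division was seen after the values were known. It does not extend to HADHA and HADHB, whose products act on long chains and which were lower in low glucose. ACADVL was the most abundant of the family in both media and ACADL the least.

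All 5 genes of the later steps of the spiral lay below 0, with a median of -0.50. ECHS1, the short-chain enoyl-CoA hydratase, stood at 222 TPM with high and 141 TPM with low glucose (-0.65). HADH, the dehydrogenase for medium and short chains, stood at 37.4 and 24.8 TPM (-0.57). The thiolase gene ACAA2, which releases acetyl-CoA, was closest to level at 178 and 150 TPM (-0.25).

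HADHA and HADHB encode the alpha and beta subunits of the trifunctional protein, which carries out these steps on long chains at the inner membrane. They lie head to head on chromosome 2, at 26413504 to 26467594 and 26467616 to 26513333. HADHA stood at 140 TPM with high and 114 TPM with low glucose (-0.30), and HADHB at 141 and 99.2 TPM (-0.50). Their ratio was 0.993 in high and 1.14 in low glucose, so the subunit transcripts were nearly equal in number in high glucose.

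Enzymes for double bonds also lay below 0. DECR1, a reductase needed for polyunsaturated chains, stood at 104 TPM with high and 64.6 TPM with low glucose (-0.68), the lowest difference of the mitochondrial genes. The isomerase gene ECI2, whose product is found in mitochondria and peroxisomes, stood at 70.5 and 55.3 TPM (-0.34). Its relative ECI1 was nearly level at 156 and 146 TPM (-0.09), with a value of 0.07 once the median of genes of its own level was subtracted.

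ETFA and ETFB, the most abundant of the mitochondrial genes in both libraries, encode the subunits of the flavoprotein that takes electrons from the dehydrogenases. ETFA stood at 361 TPM with high and 323 TPM with low glucose (-0.16), and ETFB at 299 and 213 TPM (-0.48). ETFDH, which passes these electrons to ubiquinone, was far scarcer and nearly level at 11.4 and 10.8 TPM (-0.07). Its interval overlaps C4orf46 (12.2 and 11.2 TPM), with the same limit on strand as for CPT2.

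Ketone body genes were at modest or low levels. ACAT1, the mitochondrial thiolase that makes or cleaves acetoacetyl-CoA, stood at 44.5 TPM with high and 35.6 TPM with low glucose (-0.31). BDH1, which converts acetoacetate and 3-hydroxybutyrate into each other, was the scarcest of the 47 genes, at 1.98 and 1.35 TPM (-0.34). OXCT1, the transferase by which tissues other than liver use ketone bodies, stood at 6.04 and 9.03 TPM (0.51). OXCT1 was thus higher in low glucose while ACAT1 and BDH1, whose products act in both directions, were lower, all within 2-fold.

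Over the 20 mitochondrial genes, from CPT1A to OXCT1, 16 lay below 0 (80%, against 45.3% of all genes compared) and 4 above, with a median of -0.32. Their summed TPM was 2029 in high and 1673 in low glucose, a ratio of 0.825. The 4 above 0 were ACADL, CPT1A, OXCT1 and ACADVL, named after their values were seen. The first 3 of these were among the scarce transcripts of the set, at under 10 TPM in both libraries, and ACADVL was among the abundant ones.

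**Figure D2:**
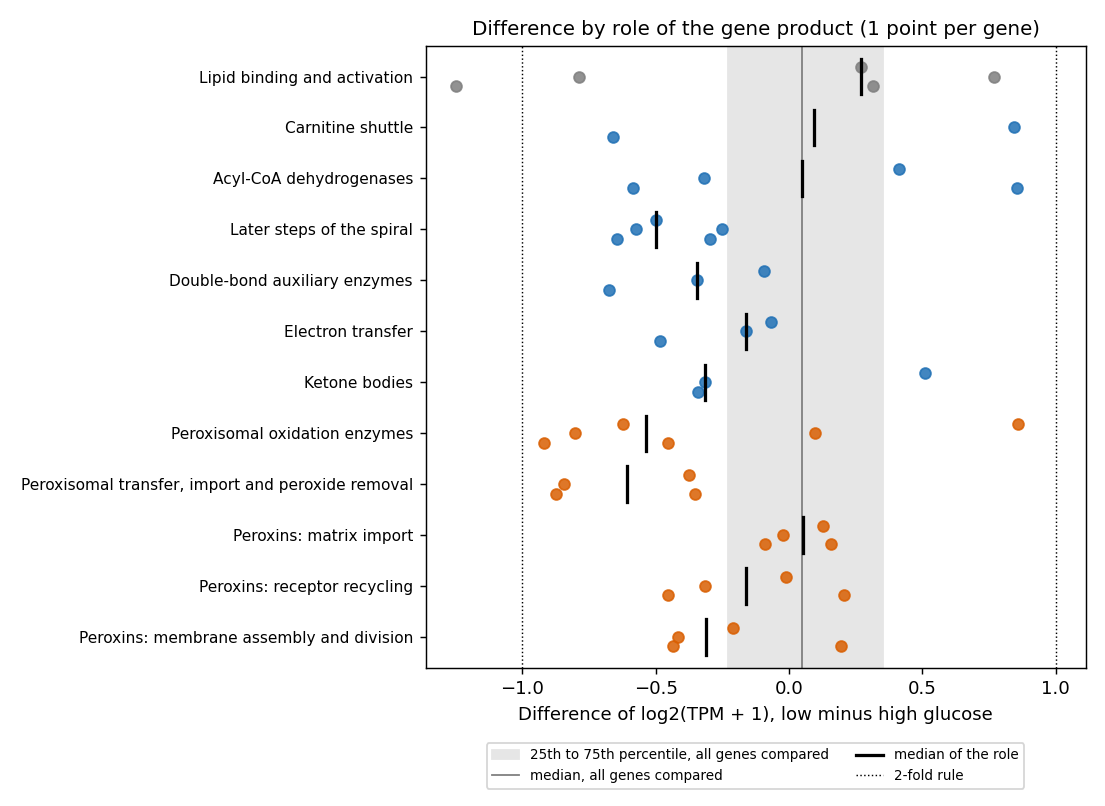
Difference in log2(TPM + 1) between low and high glucose (horizontal axis, positive where low glucose is higher), with 1 point per gene, sorted by role (rows), a black bar at each role's median and grey shading from the 25th to the 75th percentile of all genes compared (-0.23 to 0.35). To the left of the shading lie the medians of the later steps of the spiral (-0.50), the double-bond enzymes (-0.34), the ketone body genes (-0.31), both rows of peroxisomal enzymes (-0.54 and -0.61) and the peroxins for membrane assembly and division (-0.31), while those of the peroxins for matrix import (0.05) and receptor recycling (-0.16) and of the other rows lie within it.

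Among the peroxisomal oxidation enzymes, 4 of 6 lay below 0. SCP2 (chromosome 1, 53392901 to 53517289) encodes a thiolase and, from a second start, a lipid transfer protein. It stood at 165 TPM with high and 86.5 TPM with low glucose, 1.90-fold lower (-0.92), a value that covers both products. EHHADH and HSD17B4 encode the peroxisomal bifunctional enzymes that hydrate and then oxidise the chain. EHHADH, which acts on dicarboxylic acids among others, stood at 58.3 and 33.0 TPM (-0.80).

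HSD17B4, which acts on very long and branched chains and bile acid precursors, stood at 188 TPM with high and 122 TPM with low glucose (-0.62). The thiolase gene ACAA1 stood at 167 and 122 TPM (-0.45). HSD17B4, ACAA1 and SCP2 were at like levels in high glucose, and SCP2 was the lowest of them in low glucose. The acyl-CoA oxidases ACOX2 and ACOX3, which start the peroxisomal spiral, lay above 0.

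ACOX2, the oxidase for bile acid precursors, was nearly level at 24.2 TPM with high and 25.9 TPM with low glucose (0.10). ACOX3 (chromosome 4, 8368009 to 8442452), an oxidase for branched chains, was higher in low glucose at 16.9 and 31.4 TPM (0.86), the highest difference of the 47 genes. In high glucose ACOX2 was the more abundant of the pair, and in low glucose ACOX3.

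The genes for transfer and peroxide removal all lay below 0. CAT (chromosome 11, 34460472 to 34493607), which encodes catalase and breaks down the peroxide made by the oxidases, stood at 123 TPM with high and 66.8 TPM with low glucose, 1.85-fold lower (-0.88). CROT (chromosome 7, 86974951 to 87029112), which links medium chains to carnitine for export to mitochondria, stood at 18.2 and 9.70 TPM (-0.84). CAT and CROT followed SCP2 as the genes with the lowest differences after FABP1. CRAT, an acetyltransferase found in both organelles, stood at 49.1 and 38.3 TPM (-0.35), and ABCD3, a membrane transporter that brings in acyl-CoA, at 98.6 and 75.9 TPM (-0.37).

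The 12 peroxin genes had levels of 3.85 to 39.5 TPM over both libraries. For import of enzymes, PEX5 encodes the receptor of the common carboxy-terminal signal and PEX7 that of the rarer amino-terminal one, and PEX13 and PEX14 form the docking site. PEX5 stood at 33.1 TPM with high and 31.0 TPM with low glucose (-0.09) and PEX7 at 7.09 and 7.84 TPM (0.13). PEX13 stood at 35.3 and 39.5 TPM (0.16) and PEX14 at 23.8 and 23.4 TPM (-0.02). The sum of these 4 was 99.3 TPM with high and 102 TPM with low glucose.

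For recycling of the receptor, PEX2 and PEX10 belong to the ubiquitin ligase of the membrane, and PEX6 is an ATPase held there by PEX26. PEX2 stood at 11.2 and 8.80 TPM (-0.32), PEX10 at 22.5 and 22.3 TPM (-0.01), PEX6 at 6.05 and 4.15 TPM (-0.45) and PEX26 at 25.7 and 29.8 TPM (0.21). The ATPase and its anchor thus lay on opposite sides of 0. The PEX10 interval overlaps RER1, a more abundant gene (80.4 and 78.0 TPM), so its near-level value may include shared reads; this was not tested.

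For membrane assembly, PEX19 is the chaperone of membrane proteins, PEX3 its dock and PEX16 a further assembly factor, while PEX11A takes part in division. PEX3 and PEX19 were lower to a like degree, at 35.99 and 26.4 TPM (-0.43) and at 32.0 and 23.7 TPM (-0.42). PEX16 stood at 12.6 and 14.5 TPM (0.19) and PEX11A at 4.61 and 3.85 TPM (-0.21). The signs of PEX10 and PEX14 turned under 1 or more of 4 other scalings (lowest -0.10 and -0.11, highest 0.02 and 0.01), and that of PEX7 turned to -0.01 when the median of genes of its level was subtracted.

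The comparison of organelles asked whether mitochondrial and peroxisomal genes differed in how far they moved. The median was -0.32 for the 20 mitochondrial and -0.33 for the 22 peroxisomal genes, a gap of 0.02. In each set 16 lay below 0 (80% and 72.7%), against 45.3% of all genes compared. The sign of this small gap was not stable. It was -0.05 without the members found in both organelles and -0.03 with a pseudocount of 5. The peroxisomal set was not uniform: its enzymes and transporter (10 genes) had a median of -0.54 with 8 below 0, while its 12 peroxins had a median of -0.06 with 8 below 0. Without the peroxins, the mitochondrial median stood 0.22 above the peroxisomal one. The contrast of enzymes with peroxins was added after the values were seen, and no test of it is possible with 1 library per medium.

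The peroxisomal enzymes and transporter were also more abundant than the peroxins, with medians of 66.4 and 23.0 TPM by the mean of both libraries. With the median of genes of like level subtracted, the medians were -0.38 for the enzymes and -0.11 for the peroxins, a gap of -0.27 in place of -0.48. At 1.5-fold, 5 of the 10 enzymes and transporter were lower and 1 higher, and 0 of the 12 peroxins were past 1.5-fold either way, against 6.07% lower and 13.0% higher among all genes. At these shares most genes lie within 1.5-fold, so the 0 of 12 does not set the peroxins apart. Summed TPM was 909 in high and 611 in low glucose for the 10, a ratio of 0.673, and 249.95 and 235 TPM for the peroxins, a ratio of 0.942. In bulk RNA, less RNA per cell and fewer cells that carry it cannot be told apart.

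**Figure D3:**
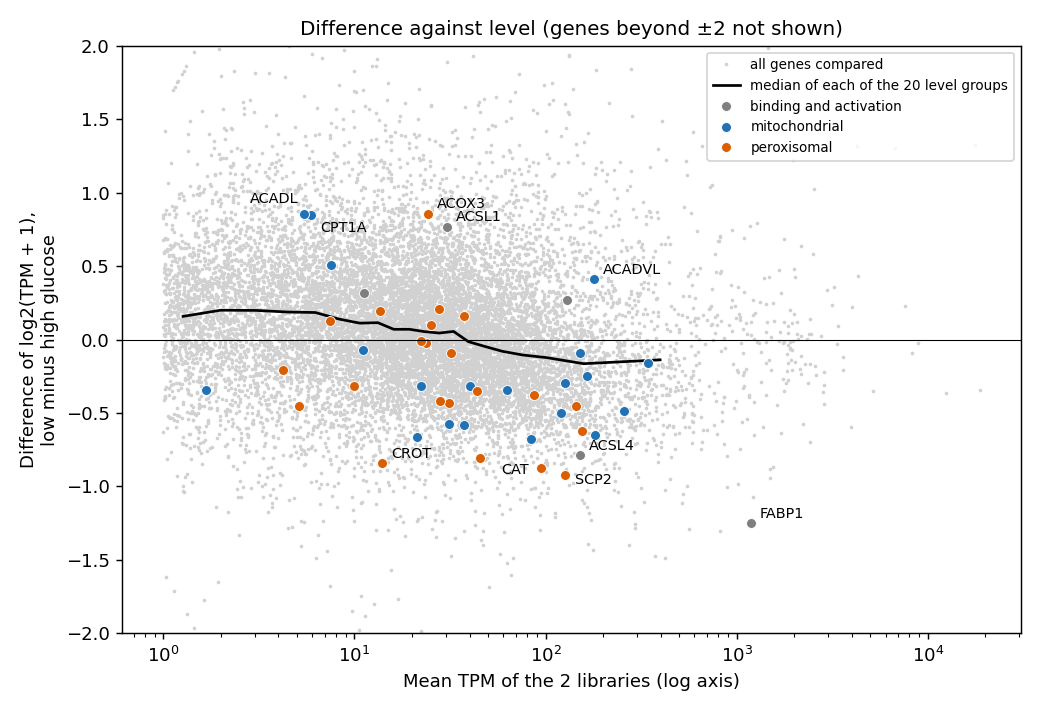
Difference in log2(TPM + 1) between low and high glucose (vertical axis, positive where low glucose is higher), against mean TPM of both libraries (horizontal log axis), for all genes compared within 2 units of 0 (grey points), the medians of 20 level groups (black line), and the 47 genes coloured by compartment. Most coloured points lie below the black line (34 of 47), with FABP1 at -1.25 and ACOX3, ACADL and CPT1A at 0.85 to 0.86.

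Other genes of these routes came from lists chosen with earlier results of these data known. Of 26 further genes of mitochondrial oxidation, fatty acid uptake and ketogenesis, 21 were at the level compared. Of these, 13 lay below 0, against 45.3% of all genes compared, and 8 above, with a median of -0.09. None was past 2-fold, against 4.75% of all genes past it either way. HSD17B10, a dehydrogenase of branched amino acid and fatty acid breakdown, was nearly level at 151 TPM with high and 142 TPM with low glucose (-0.09). ACAD11, a further acyl-CoA dehydrogenase, was higher in low glucose at 61.8 and 88.4 TPM (0.51), as ACADVL was. ACADSB, which acts on short branched chains, was lower at 82.6 and 45.4 TPM (-0.85). SLC25A20, the carrier that moves acylcarnitines across the inner membrane between CPT1A and CPT2, was lower at 86.8 and 52.0 TPM (-0.73), on the side of CPT2.

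Of 38 further peroxisomal genes, 32 were at the level compared. Of these, 25 lay below 0, against 45.3% of all genes compared, and 7 above, with a median of -0.27. None was past 2-fold, against 4.75% of all genes past it either way. IDH1, an isocitrate dehydrogenase of cytosol and peroxisome that makes NADPH, stood at 733 TPM with high and 367 TPM with low glucose, just short of 2-fold. PRDX5, a peroxidase found in several compartments, stood at 331 and 262 TPM (-0.34), and ECH1, a dienoyl-CoA isomerase, at 274 and 217 TPM (-0.34). PHYH, the hydroxylase that opens the breakdown of phytanic acid, stood at 148 and 85.4 TPM (-0.79). These abundant genes lay on the same side as CAT and SCP2.

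A list of 24 genes for PPARA, its partners and its known targets was divided, with 21 at the level compared. Of these, 10 lay below 0, against 45.3% of all genes compared, and 11 above, with a median of 0.07. PLIN5, which ties lipid droplets to mitochondria, was 2-fold higher in low glucose at 5.09 TPM with high and 11.9 TPM with low glucose (1.08). G0S2, an inhibitor of the lipase that opens fat stores, was also past the rule from a low level, at 0.37 and 2.33 TPM (1.28). These were the 2 genes of the 21 that were 2-fold higher, against 3.65% of all genes, and none was 2-fold lower, against 1.10%. Of the abundant members, which include SLC25A20 again, the lipid droplet coat gene PLIN2 stood at 317 and 338 TPM (0.09), the liver transcription factor gene CREB3L3 at 114 and 94.2 TPM (-0.28) and NCOR1, a corepressor, at 62.0 and 65.3 TPM (0.07). Chosen once the values were known, PPARA itself was nearly level (12.9 and 12.02 TPM, -0.09) and its coactivator gene PPARGC1A stood at 1.71 and 4.05 TPM (0.90).

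As a check of the cells, all 6 hepatocyte and hepatoma markers were present, from HNF4A (211 and 154 TPM) to AFP (20859 and 16441 TPM). All 6 lay below 0, against 45.3% of all genes compared. Genes as abundant as these tended to lie lower in any case, with medians of -0.16 and -0.14 in the level groups from 124 TPM up. TTR was the lowest of the 6 markers at 1351 and 682 TPM (-0.99). The summed TPM of these markers was 37259 in high and 30288 in low glucose. Of the markers of other cells, PTPRC (0.83 and 0.50 TPM), CD3E, DCN, LUM, CDH5 and VWF were below 1 TPM in both libraries and KDR was listed at 0, while LYZ stood at 550 and 198 TPM (-1.47, past 2-fold). Of 5 fibroblast markers, the 3 at the level compared lay above 0: COL1A1 at 1.06 TPM with high and 4.03 TPM with low glucose (1.29, past 2-fold), COL1A2 at 18.7 and 24.6 TPM (0.37) and PDGFRB at 8.12 and 8.82 TPM (0.11). The summed TPM of these 5 was 28.2 in high and 37.7 in low glucose. CD14 stood at 3.04 and 2.26 TPM and PECAM1 at 1.35 and 1.25 TPM. The part of these markers in the differences of the 47 genes was not tested.

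**Figure D4:**
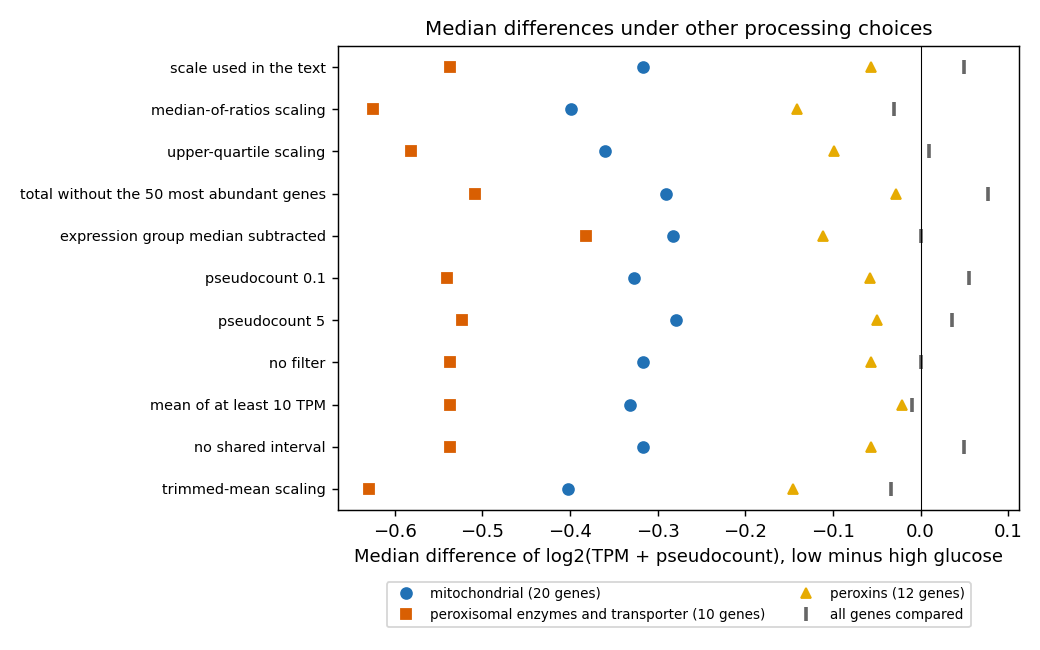
Median difference, low minus high glucose on the log2 scale (horizontal axis), of the 20 mitochondrial genes (blue circles), the 10 peroxisomal enzymes and transporter (orange squares), the 12 peroxins (yellow triangles) and all genes compared (grey bars), under each processing choice (rows). In each row shown the enzymes lie lowest (-0.63 to -0.38), the mitochondrial genes next (-0.40 to -0.28) and the peroxins nearest 0 of these 3 sets (-0.15 to -0.02); the filter at 10 TPM leaves 40 of the 47 genes.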

How the data were processed

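RNA of 2 Huh7 cultures, 1 per medium, was sequenced as libraries made with a standard Illumina protocol, per the labels. The deposited values are TPM per gene with a symbol and an hg19 interval, per the file headers, with a total of 1000000 per library. Tools named in the submitters' processing notes are cutadapt, RSEM 1.2.21, and the build is hg19; of the aligner, the annotation and the strand setting nothing is stated there. TPM keeps no read numbers, so depth is unknown and no counting interval is given.

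The 47 genes and all lists were chosen with earlier results of these data known. Genes with a mean of at least 1 TPM were compared by log2(TPM + 1), with a 2-fold rule; no test or p-value was possible. Of other genes on each list, those past 2-fold and the 4 most abundant were named; a few genes stand on more than 1 list. Some genes of these lists are not reported here. The code was tested on simulated data. RefSeq promoter windows (GRCh38.p14) matched 39 of the 47 genes, and no coordinates were converted between builds. Overlaps were sought with entries spanning under 500000 bases; 10 of the 47 had one above 0 TPM. Alternatives were 4 scalings, subtraction of level group medians, 2 pseudocounts, 2 filters, other fold rules and other compartment choices. Calculations used Python 3.11.15, pandas 2.3.3 and numpy 2.4.6.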

Additional observations from a re-analysis of the deposited data

How the results depend on the processing

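The medians of the mitochondrial and the peroxisomal genes stayed below 0 under every alternative run. The count of genes past 2-fold was 1 with the values as deposited. It was 2 with median-of-ratios scaling and 2 with trimmed-mean scaling, which was chosen after the data were seen; both added SCP2 (-1.01 in each). It was 2 with a pseudocount of 0.1, which added ACADL (1.004), 14 at 1.5-fold and 0 at 3-fold. FABP1 was past 2-fold in all alternatives at that threshold (-1.34 to -1.11). Without the PEX genes the peroxisomal median was -0.54 and the mitochondrial median stood 0.22 above it. The gap between peroxisomal enzymes and PEX genes, -0.48, was -0.27 after subtraction of level group medians. The summed TPM of low over high glucose was 0.678, and 0.800 without FABP1. Of 463 values of single genes under alternatives, 460 kept their side of the 2-fold rule and 3 moved past it. Alternatives that only change which genes are compared leave each gene's value as it was, so part of the 460 was fixed in advance. A reversal was counted only for genes past the rule at first, which is FABP1 alone, and there were 0. The scalings moved the median of all genes to between -0.03 and 0.08 and the share of all genes below 0 to between 43.0% and 53.1%, with 32 to 34 of the 47 below 0. No paired analysis was possible because each medium has 1 library. Depth is unknown, so what it limits could not be stated for genes of low level such as BDH1, CPT1A and ACADL.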

Other observations

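Partner genes kept their ratios to differing degrees. The ratio of HSD17B4 to EHHADH was 3.23 in high and 3.70 in low glucose, and that of the peroxisomal thiolase ACAA1 to the mitochondrial ACAA2 was 0.939 and 0.815. The subunits ETFA and ETFB stood at a ratio of 1.21 in high and 1.52 in low glucose. The ratio of PEX3 to PEX16, which both serve membrane assembly, was 2.87 in high and 1.82 in low glucose. These pairs were chosen with the values known, and the ratios have no replicate check.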
